A study of Mus musculus with 8 samples.

Results

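The Nodal, Lefty and FGF4 signalling genes examined here were Nodal, Gdf3, Fgf4, Tdgf1, Acvr2b, Lefty1, Lefty2 and Smad7. They were chosen by name, with earlier results of these data known. Every probe set that the platform annotation gives to 1 of these 8 symbols was taken, which made 16 of the 45101 probe sets on the array. Fgf4 had 4 probe sets, Acvr2b 3, Nodal, Gdf3 and Smad7 2 each, and Tdgf1, Lefty1 and Lefty2 1 each. Mouse cells with and without Zfx, an X-linked zinc finger transcription factor, had been profiled on 8 Affymetrix Mouse Genome 430 2.0 arrays in 4 groups of 2. The ESC groups were embryonic stem cell clones, Zfx-null and control Zfx-flox, both kept on gelatin without feeder cells in medium holding LIF and 15% serum replacement. The HSC groups were Lin- Sca1+ c-Kit+ marrow cells, a gate that holds stem cells and early progenitors, sorted after marrow of 4 to 6 mice had been pooled. The HSC Zfx-cko animals were Mx1-Cre+ Zfx flox/y, and the HSC Zfx-flox animals were Cre- Zfx flox/y littermates. Both had been given pI·C, which switches on Mx1-Cre through interferon, and marrow was taken 4 days after the last injection, so Cre was present in the Zfx-cko animals alone. Age and strain were not given in the sources used here. Duplicates were hybridised per group, and nothing says that they came from separate clones or pools, so p-values measure the spread between arrays, and that spread may be technical.

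Nodal is a secreted ligand of the TGF-beta superfamily that patterns the early embryo and is made by pluripotent cells. It binds type II receptors such as Acvr2b together with the type I receptor Acvr1b and the coreceptor Tdgf1 (Cripto), and phosphorylated Smad2 and Smad3 then act with Smad4 and Foxh1 on target genes. Lefty1 and Lefty2 are secreted antagonists that are themselves targets of the pathway, Gdf3 is a related ligand that also works through the Cripto coreceptor, and Smad7 is an inhibitory Smad induced as feedback. Fgf4 is the main autocrine fibroblast growth factor of mouse ESC and acts through FGF receptors, heparan sulfate and the ERK kinases.

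Promoter windows were available from RefSeq (build GRCm38.p6) for 4 of the 8 genes, and the 100 bases directly upstream of each annotated start are shown because the ligands Nodal and Fgf4 and the coreceptor Tdgf1 fell together in Zfx-null ESC, whereas Acvr2b did not pass the test. Each runs 5′ to 3′ on the gene's own strand, and capitals mark matches, on either strand, to GGGCGG (the GC box bound by Sp1), GGGCGTGG (a GC-rich element bound by Klf factors) and TATATA.
Nodal (chr10:61417872-61417971, plus strand): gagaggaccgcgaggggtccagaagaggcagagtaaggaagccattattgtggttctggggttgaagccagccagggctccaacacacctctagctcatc
Tdgf1 (chr9:110946159-110946258, minus strand): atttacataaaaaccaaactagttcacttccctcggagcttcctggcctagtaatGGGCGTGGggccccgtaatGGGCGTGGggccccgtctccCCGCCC
Fgf4 (chr7:144861286-144861385, plus strand): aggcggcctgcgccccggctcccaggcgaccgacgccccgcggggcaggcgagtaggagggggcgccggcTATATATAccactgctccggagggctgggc
Acvr2b (chr9:119402078-119402177, plus strand): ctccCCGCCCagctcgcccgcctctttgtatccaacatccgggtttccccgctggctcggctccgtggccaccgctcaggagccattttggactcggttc
These windows differed in composition. Over the whole window, from 250 bases before to 50 after the start, GC content was 54% for Nodal, 41.7% for Tdgf1, 69.7% for Fgf4 and 73.3% for Acvr2b, and they held 5, 7, 28 and 27 CpG in the same order. In the Tdgf1 window GGGCGTGG occurred at 2 places, beginning 45 and 26 bases before the start, and in the Fgf4 window 2 overlapping TATATA matches began 30 and 28 bases before it. The Nodal window held none of the 3. Of 32851 RefSeq windows of this length, 35.7% held GGGCGG, 5.33% GGGCGTGG and 5.67% TATATA, which were picked after the windows had been read. No match was found in the 4 windows for AGGCCT, the core of the motif bound by ZFX (10.3% of windows held it), nor for the Foxh1 motifs AATCCACA (0.855%) and AATACACA (0.98%), the octamer ATTTGCAT (1.74%) and the Smad palindrome GTCTAGAC (0.213%), each searched on both strands. These are matches of letters in a short window and say nothing of binding.

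The deposited signals are linear intensities, brought to a common trimmed mean of 250 per array, with array medians between 38.4 and 66.5. Pearson correlations of log2 values were 0.98 to 0.987 within a group and 0.963 to 0.971 between the 2 genotypes of a cell type. A Zfx probe set read 1.32 and 0.878 in Zfx-null ESC, against 285 and 298 in Zfx-flox ESC. In HSC it lay below 8 on each array of both genotypes and so checked nothing about those labels. Log2 changes below are on the scale log2(value + 14.2), which understates changes of dim probe sets. Each is given with its standard error, and with an adjusted p from limma (Benjamini-Hochberg over 27022 tested probe sets in each cell type and 22818 for the difference between cell types, threshold 0.05). Signals were not set against each other between genes, since probe sets differ in response.

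The ESC comparison addressed which transcripts differ without Zfx in ES cells. Both Nodal-type ligands, Fgf4, the Cripto coreceptor and both Lefty antagonists were lower in Zfx-null ESC, by 1.55-fold to 3.18-fold, whereas the type II receptor Acvr2b and the feedback inhibitor Smad7 did not pass the test. Of the 16 probe sets 14 were bright enough to be tested, 10 of them fell in Zfx-null ESC, 0 rose and 4 did not pass, and the 10 covered 6 of the 8 genes. Over all tested probe sets 25.1% were called, 12.8% lower and 12.3% higher. The members' median log2 change was −0.87, against −0.05 over all tested probe sets. On both Zfx-null arrays 12 of the 14 read lower than on both Zfx-flox arrays, as did 34.9% of all tested probe sets, and 0 read higher on both, as 27.5% of all did. Since the members were chosen with earlier results of these data known, their counts and median are no independent finding about the pathway.

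Among the ligands, Nodal was read by a pair of probe sets. Probe set 1422058_at read 1787 and 1707 in Zfx-null ESC, against 2764 and 2677 in Zfx-flox ESC. The genotypes did not overlap, and the log2 change was −0.64 ± 0.11 (adjusted p = 0.00361). Probe set 1422057_at read 792 and 633 in Zfx-null ESC, against 1337 and 1223 in Zfx-flox ESC, again without overlap. Its log2 change was −0.84 ± 0.18 (adjusted p = 0.00982), but the adjusted p was 0.0819 without ESC Zfx-null replicate 2 and 0.0778 without ESC Zfx-flox replicate 1. Gdf3, which lies in a cluster of pluripotency genes, gave 1585 and 1477 in Zfx-null ESC with probe set 1449288_at, against 3347 and 3314 in Zfx-flox ESC. Every Zfx-null value was under every Zfx-flox value, and Gdf3 fell by 1.11 ± 0.10 (adjusted p = 0.000157). The other Gdf3 probe set, 1460057_at, read 390.3 and 415 in Zfx-null ESC, against 794 and 688 in Zfx-flox ESC, a log2 change of −0.86 ± 0.15 (adjusted p = 0.00363).

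Fgf4 fell on 3 of its 4 probe sets. With 1420085_at it read 625 and 662 in Zfx-null ESC, against 1596 and 1629 in Zfx-flox ESC. With 1420086_x_at it read 611 and 596 in Zfx-null ESC, against 1509 and 1509.8 in Zfx-flox ESC. The 2 sets gave log2 changes of −1.31 ± 0.14 (adjusted p = 0.000329) and −1.30 ± 0.15 (adjusted p = 0.000508), and neither had overlapping genotypes. Sets with the suffix _x_at hold probes that can match other transcripts. So 1420086_x_at alone is not given as a fall of Fgf4, but 1420085_at fell as well. The dimmer 1450282_at read 135 and 148 in Zfx-null ESC, against 221 and 331 in Zfx-flox ESC, a log2 change of −0.88 ± 0.21 (adjusted p = 0.0149). Its Zfx-flox arrays stood far apart, and the adjusted p was 0.0787 without ESC Zfx-null replicate 1 and 0.103 without ESC Zfx-flox replicate 2. The fourth, 1449729_at, read 12.9 and 10.4 in Zfx-null ESC, against 4.12 and 18.8 in Zfx-flox ESC. It was too dim to be tested in the cells where the other 3 were bright, so it did not follow Fgf4 there.

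Tdgf1, the coreceptor that Nodal needs at the cell surface, read 2586 and 2471 in Zfx-null ESC, against 5789 and 5752 in Zfx-flox ESC. The genotypes lay far apart relative to the spread of their duplicates, and the log2 change was −1.19 ± 0.13 (adjusted p = 0.000353). Acvr2b, the receptor that carries the type II kinase, read 349 and 421 in Zfx-null ESC with probe set 1419140_at, against 442 and 466 in Zfx-flox ESC. Zfx-null values were the lower ones without overlap, but the change of −0.24 ± 0.17 did not pass (adjusted p = 0.355, 95% interval −0.62 to 0.15). Probe set 1439856_at read 169.9 and 155 in Zfx-null ESC, against 190.2 and 215 in Zfx-flox ESC, and did not pass either (log2 change −0.29 ± 0.27, adjusted p = 0.474). Acvr2b probe set 1440525_at was not tested in either cell type, since 7 of its 8 values lay under 12.

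Among the inhibitors, Lefty1 read 2299.9 and 2371 in Zfx-null ESC, against 5077 and 5227 in Zfx-flox ESC. The duplicates agreed closely, the genotypes did not overlap, and the log2 change was −1.14 ± 0.11 (adjusted p = 0.000171). Lefty2 read 198 and 190.5 in Zfx-null ESC, against 676 and 621 in Zfx-flox ESC. It had the largest fitted change of the 14 tested member probe sets, at −1.67 ± 0.23 (adjusted p = 0.00104, 3.18-fold lower). Smad7, which acts inside the cell on the receptors, read 712 and 562 in Zfx-null ESC with probe set 1423389_at, against 458 and 625 in Zfx-flox ESC. The genotypes overlapped, and the log2 change of 0.23 ± 0.20 did not pass (adjusted p = 0.441, 95% interval −0.22 to 0.69). Its second set, 1443771_x_at, read 313 and 260.4 in Zfx-null ESC, against 194 and 344 in Zfx-flox ESC, and overlapped too (log2 change 0.13 ± 0.24, adjusted p = 0.729).

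**Figure D1:**
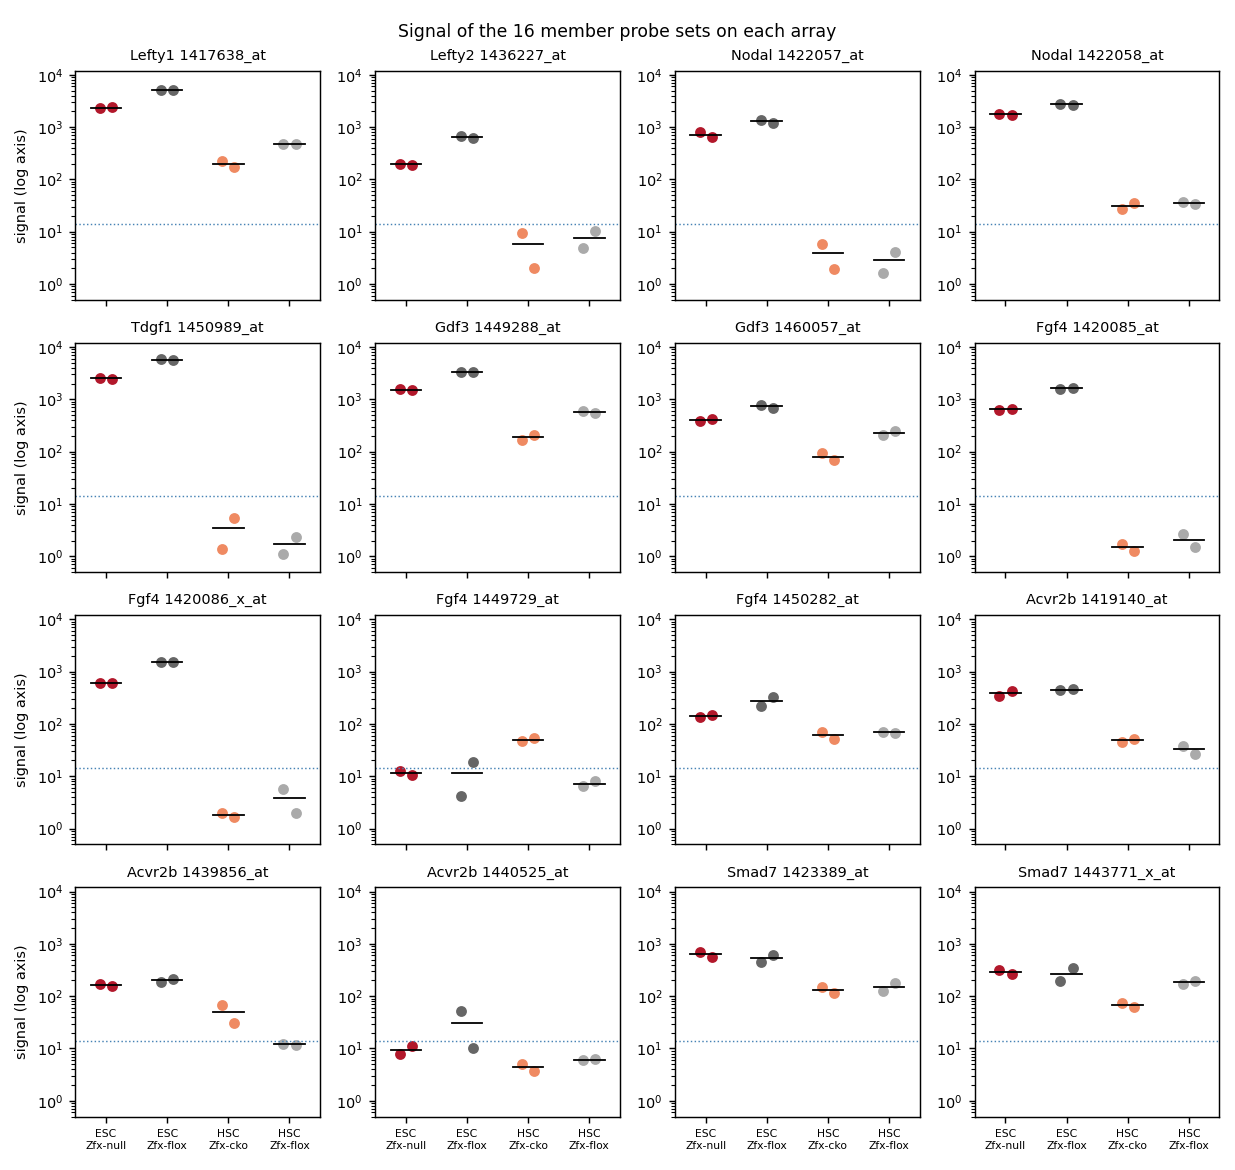
Deposited signal (log axis, probe set intensity) of the 16 member probe sets in the 4 groups; each point is 1 array, the short line is the mean of the 2 arrays, and the dotted line marks 14.2. In ESC the Zfx-null points of Lefty1, Lefty2, Nodal, Tdgf1, Gdf3 and 3 Fgf4 sets sit below the Zfx-flox points, and in HSC the Zfx-cko points of Lefty1, both Gdf3 sets and Smad7 1443771_x_at sit below the Zfx-flox points.

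Markers of other cell types and states were read beside these values, since in bulk RNA fewer cells of a type and less RNA per cell cannot be told apart. Beside the marker counts below, 14.4% of all tested genes fell in Zfx-null ESC and 15.4% rose. The summed signal of 5 ESC markers was 9716 to 10312 in Zfx-null ESC and 14391 to 15132 in Zfx-flox ESC, and 2 of the 5 fell (Pou5f1 and Nanog). The summed signal of 7 fibroblast markers was 22445 to 24043 in Zfx-null ESC and 12438 to 12880 in Zfx-flox ESC, and 4 of 7 rose, among them Col3a1 (log2 change 1.23 ± 0.10). The summed signal of 7 primitive endoderm markers was 1471 to 1529.7 in Zfx-null ESC and 738 to 745 in Zfx-flox ESC, and 1 of 6 tested rose, the endocytic adaptor Dab2 (1.46 ± 0.15), and averaging 1140 ± 46.9 in Zfx-null ESC and 406.0 ± 9.46 in Zfx-flox ESC. Without Dab2 the sum of the other 6 was 356.6 to 364.1 in Zfx-null ESC and 325.2 to 345.4 in Zfx-flox ESC, and the lineage factor Gata6 averaged 96.5 ± 2.11 in Zfx-null ESC and 94.5 ± 6.50 in Zfx-flox ESC (SD, n = 2 each). For 4 epiblast markers it was 3636 to 4338 in Zfx-null ESC and 4616 to 5553 in Zfx-flox ESC, and 1 of 4 fell, the DNA methyltransferase Dnmt3b (−0.36 ± 0.10). Of 2 tested primitive streak markers 0 passed the threshold, with Eomes at 0.56 ± 0.40 and Mixl1 at 0.44 ± 0.33. The summed signal over 4 was 204 to 235 in Zfx-null ESC and 148 to 176 in Zfx-flox ESC. The part of these populations in the fall of the ligands and antagonists was not tested.

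In the HSC comparison, which asked the same question in marrow stem and progenitor cells 4 days after the last pI·C dose, Lefty1 and both Gdf3 probe sets were again lower without Zfx, whereas Lefty2, Tdgf1, both Nodal sets and Fgf4 1420085_at and 1420086_x_at read under 40. Of the 16 probe sets 10 were tested, 4 fell in Zfx-cko HSC, 2 rose and 4 did not pass, with a median log2 change of −0.16 against 0.06 over all tested probe sets. Over all tested probe sets 38% were called, 16.1% lower and 21.9% higher. Both Zfx-cko arrays read lower than both Zfx-flox arrays for 4 of the 10 and higher for 3, against 30.1% and 40.4% of all tested probe sets.

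Lefty1 read 228 and 173 in Zfx-cko HSC, against 479 and 471 in Zfx-flox HSC. The genotypes did not overlap, and the antagonist fell by 1.20 ± 0.11 on the log2 scale (adjusted p = 4.11e-05). Gdf3 probe set 1449288_at read 168 and 213 in Zfx-cko HSC, against 605 and 556 in Zfx-flox HSC, a log2 change of −1.55 ± 0.10 (adjusted p = 8.32e-06). Gdf3 1460057_at moved the same way, at 93.1 and 68.3 in Zfx-cko HSC, against 211 and 253 in Zfx-flox HSC (log2 change −1.38 ± 0.15, adjusted p = 0.000124). These 2 genes were thus measured well above the floor in cells whose ESC markers were not. Pou5f1 averaged 8.33 ± 7.92 in Zfx-cko HSC and 8.74 ± 3.40 in Zfx-flox HSC, and Nanog averaged 1.75 ± 0.33 in Zfx-cko HSC and 1.59 ± 0.39 in Zfx-flox HSC (SD, n = 2 each).

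The remaining ligand and coreceptor values in HSC were low. Lefty2 read 9.43 and 2.00 in Zfx-cko HSC, against 4.84 and 10.5 in Zfx-flox HSC, and Tdgf1 lay under 6 on each of the 4 HSC arrays, so neither was tested. Nodal 1422058_at read 26.9 and 35.4 in Zfx-cko HSC, against 37.0 and 34.4 in Zfx-flox HSC, overlapping and not passing (log2 change −0.14 ± 0.11, adjusted p = 0.361). Fgf4 1420085_at and 1420086_x_at read under 6 on each HSC array. Fgf4 1450282_at read 69.6 and 52.0 in Zfx-cko HSC, against 71.5 and 67.3 in Zfx-flox HSC, a log2 change of −0.17 ± 0.21 that did not pass (adjusted p = 0.581). The set that was dark in ESC, Fgf4 1449729_at, read 47.1 and 52.8 in Zfx-cko HSC, against 6.41 and 7.97 in Zfx-flox HSC (log2 change 1.58 ± 0.32, adjusted p = 0.00412). It passed the filter on low signal only through the Zfx-cko arrays and went against the other Fgf4 sets, so it is not taken as a value of Fgf4, although it is 1 of the 2 sets counted as higher.

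Acvr2b and Smad7 gave mixed readings in HSC. Acvr2b 1439856_at read 68.1 and 30.5 in Zfx-cko HSC, against 12.2 and 11.8 in Zfx-flox HSC, a log2 change of 1.21 ± 0.27 (adjusted p = 0.00642). Both Zfx-flox values lay under 14.2, and the set passed the filter on low signal only through the Zfx-cko arrays, so both member sets counted as higher in HSC did so. Its Zfx-cko duplicates differed widely, and the change was 0.77 without HSC Zfx-cko replicate 1 and 1.65 without HSC Zfx-cko replicate 2, within a range of 0.77 to 1.93 over the alternatives run. The other tested set, Acvr2b 1419140_at, read 45.3 and 51.8 in Zfx-cko HSC, against 38.6 and 26.9 in Zfx-flox HSC, a log2 change of 0.43 ± 0.17 that did not pass (adjusted p = 0.0751). For Smad7 the 2 sets parted. Smad7 1443771_x_at read 75.3 and 62.0 in Zfx-cko HSC, against 169.8 and 196 in Zfx-flox HSC, and fell by 1.25 ± 0.24 (adjusted p = 0.00269). Smad7 1423389_at read 149 and 117 in Zfx-cko HSC, against 128 and 175 in Zfx-flox HSC, with overlap (log2 change −0.16 ± 0.20, adjusted p = 0.575). The suffix _x_at marks sets with probes that can match other transcripts, so the fall belongs to that set and is not given as a fall of Smad7. It remains counted among the member sets that fell in HSC.

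Other measures moved with genotype in HSC, where 22.6% of all tested genes rose and 19.7% fell in Zfx-cko. The summed signal of 5 stem cell and progenitor markers (Kit, Cd34, Flt3, Meis1 and Procr) was 11463 to 11712 in Zfx-cko HSC and 3327 to 3579 in Zfx-flox HSC, and 5 of 5 rose. Mature blood markers summed to 339.6 to 370.4 in Zfx-cko HSC and 437 to 466 in Zfx-flox HSC, with 0 of 1 tested past the threshold. The 1 tested was Elane (log2 change −0.43 ± 0.18, adjusted p = 0.0867). It averaged 296.6 ± 6.56 in Zfx-cko HSC and 404.4 ± 25.7 in Zfx-flox HSC (SD, n = 2 each). Most of the sum was thus Elane, so the sum reads mainly that gene. The log2 ratio of the 5′ to the 3′ Gapdh set, a sign of RNA length after amplification, was −4.68 and −4.39 in Zfx-cko HSC, against −4.18 and −4.25 in Zfx-flox HSC, and lay between 0.377 and 0.437 on the 4 ESC arrays. The part of either in the fall of Lefty1 and Gdf3 was not tested.

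**Figure D2:**
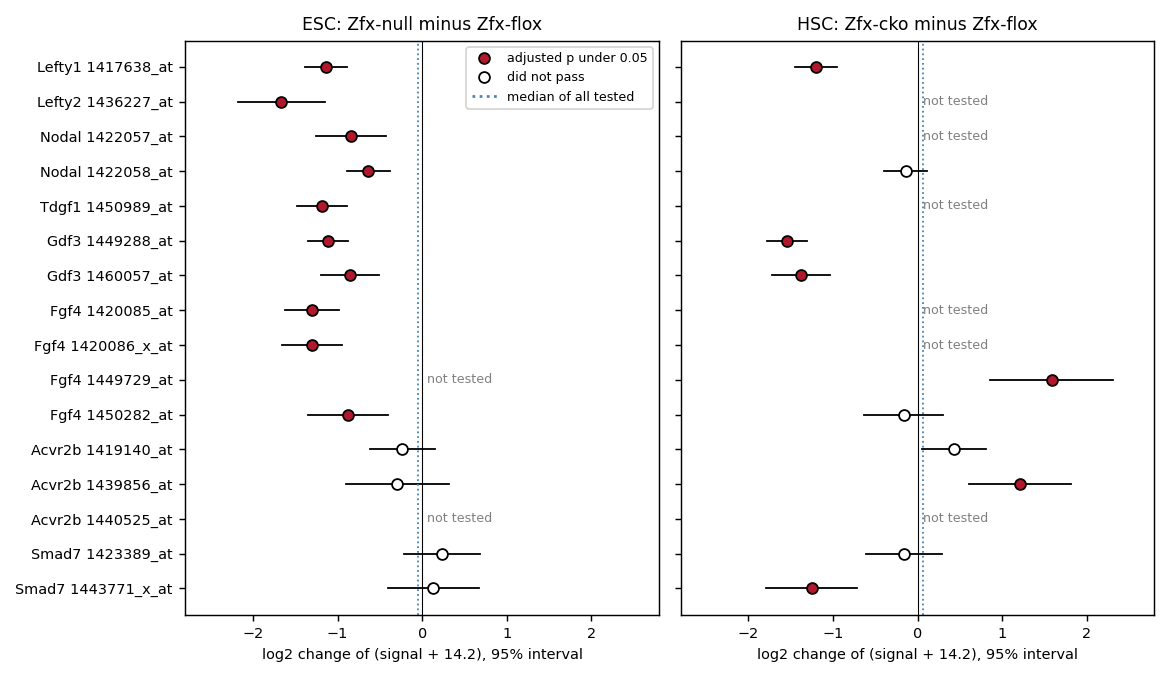
Log2 change with its 95% interval for the tested member probe sets, Zfx-null minus Zfx-flox in ESC and Zfx-cko minus Zfx-flox in HSC; the dotted line is the median of all tested probe sets. In ESC 10 of 14 sets lie below 0 with an adjusted p under 0.05, and in HSC Lefty1 (−1.20), Gdf3 (−1.55 and −1.38) and Smad7 1443771_x_at (−1.25) do so while Acvr2b 1439856_at (1.21) and Fgf4 1449729_at (1.58) lie above 0.

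Whether the change differed between the cell types was tested for the 9 member probe sets bright enough in both. Lefty1 gave changes of −1.20 in HSC and −1.14 in ESC, a difference of −0.06 ± 0.15 (adjusted p = 0.785). Gdf3 1449288_at changed by −1.55 in HSC and −1.11 in ESC (difference −0.43 ± 0.15, adjusted p = 0.0504, past the threshold under 9 of 19 alternatives), and 1460057_at by −1.38 in HSC and −0.86 in ESC (difference −0.53 ± 0.21, adjusted p = 0.0891). The sets that passed were 3, namely Smad7 1443771_x_at (−1.39 ± 0.33, adjusted p = 0.0117), Acvr2b 1439856_at (1.51 ± 0.38, adjusted p = 0.0147) and Nodal 1422058_at (0.49 ± 0.16, adjusted p = 0.0411). The Acvr2b difference, which shares the dim Zfx-flox HSC values of that set, ranged from 1.07 to 2.25 over the alternatives and had an adjusted p of 0.0505 without ESC Zfx-flox replicate 2. The Nodal difference was lost under 14 of 17 alternatives, among them leaving out any single array other than HSC Zfx-cko replicate 1 (adjusted p 0.0593 to 0.119). Over all tested probe sets 32.6% differed between the cell types, 14.6% more negative and 18% more positive in HSC, so 3 of 9 is close to the background. Of those called, 44.9% were more negative in HSC, or 57.9% when arrays were centred on their medians, which gave a median difference of −0.05 over all probe sets in place of 0.07.

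The other genes of the pathways were read from lists, 1 probe set per gene, with group means ± SD of 2 arrays and log2 changes ± SE. These lists too were chosen with earlier results of these data known. Over all tested genes in ESC 14.4% fell and 15.4% rose in Zfx-null. Among 5 further tested ligands and convertases 3 rose and 1 fell, while Gdf3 and Nodal fell. Furin, a protease that cleaves the Nodal precursor, averaged 580.6 ± 5.43 in Zfx-null ESC and 259.9 ± 15.1 in Zfx-flox ESC (log2 change 1.12 ± 0.12, adjusted p = 0.000335). The related Pcsk5 rose as well (1.26 ± 0.21), whereas Pcsk6 did not pass (−0.30 ± 0.28, adjusted p = 0.487). Inhba (0.68 ± 0.21) rose and Inhbb (−0.76 ± 0.15) fell, 2 subunits of activins that share the receptors of Nodal. Among 5 further receptors Tgfbr2 (0.72 ± 0.11) and Tgfbr1 (0.27 ± 0.08) rose, Acvr1b, the type I receptor of Nodal, fell by 0.40 ± 0.10, and 2 did not pass. Of 12 further antagonists 3 rose, namely the activin-binding Fst (406.7 ± 94.8 in Zfx-null ESC and 169.8 ± 16.1 in Zfx-flox ESC, log2 change 1.18 ± 0.21), Fstl3 (0.73 ± 0.21) and Smurf2 (0.32 ± 0.10), and 0 fell.

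Foxh1, the DNA-binding partner of Smad2 and Smad3 on Nodal targets, averaged 168.8 ± 4.18 in Zfx-null ESC and 313.2 ± 22.9 in Zfx-flox ESC (log2 change −0.84 ± 0.17, adjusted p = 0.0066, and 0.0527 without ESC Zfx-flox replicate 2). Smad3 (0.70 ± 0.09) and Smad4 (0.38 ± 0.07) rose, and the other 4 tested Smads and cofactors did not pass. Of 9 tested factors known to bind enhancers of these genes in ES cells 5 fell and 0 rose, namely Prdm14 (−1.16 ± 0.21), Pou5f1 (−1.01 ± 0.25), Foxh1, Nanog (−0.71 ± 0.12) and Klf4 (−0.53 ± 0.14), whereas Sox2, with a log2 change of −0.26 ± 0.17, did not pass (adjusted p = 0.308). The BMP branch, which shares Smad4, went the other way, with 8 of 11 tested genes higher, 0 lower and a median log2 change of 0.80. Its ligand Bmp2 averaged 312.6 ± 49.5 in Zfx-null ESC and 67.2 ± 22.1 in Zfx-flox ESC (log2 change 2.02 ± 0.28, adjusted p = 0.00113), its effector Smad1 rose by 1.09 ± 0.07 (adjusted p = 2.5e-05) and its target Id3 by 1.02 ± 0.23. Primitive streak targets other than the members gave 1 fall in 4, that of Fgf8 (−1.06 ± 0.23).

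On the FGF side, 3 of 9 further tested genes in the FGF ligand list fell in Zfx-null ESC and 1 rose. Fgf17 averaged 74.6 ± 9.31 in Zfx-null ESC and 184.6 ± 9.70 in Zfx-flox ESC (log2 change −1.17 ± 0.19), Fgf8 and Fgf1 (−0.93 ± 0.21) were the others that fell, and Fgf13, an intracellular family member, rose (0.96 ± 0.17). Of 11 FGF receptors and heparan sulfate enzymes 1 rose (Glce, 0.38 ± 0.09), 1 fell (Ext2, −0.87 ± 0.14) and 9 did not pass. In the relay from receptor to ERK 3 of 11 rose, namely Ptpn11 (0.68 ± 0.06), Sos2 (0.52 ± 0.10) and Shc1 (0.39 ± 0.12), and 2 fell, namely Braf (−0.63 ± 0.09) and Gab1 (−0.54 ± 0.07). Among 12 ERK feedback genes and targets the phosphatases Dusp5 (1.50 ± 0.15) and Dusp4 (1.16 ± 0.14) rose, Etv5 (−0.58 ± 0.09) and Spred1 (−0.32 ± 0.09) fell, and Dusp6, a common readout of FGF signalling, did not pass (0.06 ± 0.07, adjusted p = 0.56).

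Several of these ESC calls were lost when single arrays were left out. Those of Inhba, Fstl3, Smurf2, Id3, Shc1 and Spred1 were each lost without any 1 of the 4 ESC arrays (adjusted p 0.0525 to 0.246). With single arrays left out their log2 changes ranged over 0.48 to 0.88 for Inhba, 0.65 to 0.80 for Fstl3, 0.25 to 0.40 for Smurf2, 0.98 to 1.06 for Id3, 0.32 to 0.46 for Shc1 and −0.34 to −0.30 for Spred1. Inhba lost its call without any 1 HSC array too, as Smurf2 did without either HSC Zfx-cko array. Klf4 lost its call without ESC Zfx-null replicate 1, Zfx-null replicate 2 or Zfx-flox replicate 1 (0.0678 to 0.132). Pou5f1 lost its call without ESC Zfx-null replicate 1, Zfx-flox replicate 1 or Zfx-flox replicate 2 (0.0751 to 0.131). Tgfbr1 lost its call without any 1 array other than ESC Zfx-flox replicate 1 (0.0601 to 0.216), and Glce without any 1 ESC array other than Zfx-null replicate 1 (0.0622 to 0.0969). Fgf1 did so without ESC Zfx-null replicate 1 or Zfx-flox replicate 2 (0.0833 and 0.0874), Acvr1b without Zfx-null replicate 2 or Zfx-flox replicate 2 (0.08 and 0.0856), and Inhbb without Zfx-flox replicate 2 (0.0597). With the mean of a gene's probe sets in place of 1, the calls of Tgfbr2 (0.11), Smad3 (0.31), Acvr1b (−0.28), Glce (0.28), Klf4 (−0.37), Shc1 (0.22), Spred1 (−0.23), Inhba (0.30), Inhbb (−0.55) and Fgf1 (−0.58) were lost, and the changes of Ext2 (0.03) and Tgfbr1 (−0.05) turned. With no pseudocount the calls of Bmp2 (2.25, adjusted p = 0.112), Nanog (−0.71, 0.12), Fgf8 (−1.37, 0.15), Id3 (1.04, 0.297), Pou5f1 (−1.01, 0.333), Inhba (0.177), Fstl3 (0.282), Tgfbr1 (0.053), Shc1 (0.0665) and Smurf2 (0.0532) were lost. Pcsk5 passed the filter only through the Zfx-null arrays and Fgf8 only through the Zfx-flox arrays. Inhba, Inhbb, Tgfbr1, Fstl3, Smurf2, Nanog, Klf4, Fgf1, Sos2, Shc1 and Spred1 were named here after their ESC values had been seen.

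In HSC, where 19.7% of tested genes fell and 22.6% rose in Zfx-cko, the receptors moved while most ligands were dark. Of 6 further receptors and coreceptors 5 rose, 0 fell and 1 did not pass. Acvr2a averaged 215.3 ± 11.1 in Zfx-cko HSC and 77.8 ± 12.7 in Zfx-flox HSC (log2 change 1.33 ± 0.14, adjusted p = 0.000105), and Acvr1b (0.97 ± 0.10), Tgfbr1 (0.85 ± 0.08), Cfc1 (0.68 ± 0.21) and Tgfbr2 (0.43 ± 0.11) were the others. Of 10 further antagonists 4 rose, namely Smurf1 (0.81 ± 0.16), Skil (0.73 ± 0.08), Tgif1 (0.69 ± 0.14) and Smad6 (0.60 ± 0.17), and 0 fell. Smurf1, at 47.9 in Zfx-cko HSC and 21.2 in Zfx-flox HSC, passed the filter on low signal only through the Zfx-cko arrays. Smad4 (0.61 ± 0.07) and Smad3 (0.50 ± 0.09) rose, and of 2 further ligands and convertases Furin fell (−0.42 ± 0.12). In the BMP branch 5 of 8 rose, with a median of 0.98, namely Id2 (1.79 ± 0.14), Acvr1 (1.69 ± 0.12), Smad1 (1.61 ± 0.07), Smad5 (1.08 ± 0.13) and Bmpr2 (0.88 ± 0.09), and 0 fell. Of 3 tested enhancer-binding factors Klf4 (1.90 ± 0.14) and Tcf7l1 (0.85 ± 0.19) rose, and 2 of 2 tested streak targets did not pass.

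The HSC calls of some receptors and inhibitors were not held by each setting. Smad6 lost its call without any 1 HSC array (adjusted p 0.0609 to 0.103), Cfc1 without HSC Zfx-cko replicate 2 or Zfx-flox replicate 2 (0.19 and 0.165), Tgfbr2 without Zfx-cko replicate 2 or Zfx-flox replicate 1 (0.0979 and 0.101), and Furin without Zfx-cko replicate 1 or Zfx-flox replicate 1 (0.141 and 0.137). With the mean of a gene's probe sets the calls of Tgfbr1 (0.37), Tgfbr2 (0.18), Acvr1b (0.41), Acvr1 (0.44), Skil (0.24) and Smad3 (0.09) were lost. Tgfbr2, Cfc1, Smad6, Tgif1, Smad5 and Bmpr2 were named here after their HSC values had been seen.

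FGF genes were then read in HSC. Of 11 FGF receptors and heparan sulfate enzymes 6 fell and 1 rose, with Ext1 (−0.96 ± 0.12) and the decoy receptor Fgfrl1 (−0.94 ± 0.21) lower and Fgfr1 (0.94 ± 0.14) higher. Of 11 relay genes 5 fell and 2 rose, with Sos2 (−0.56 ± 0.10) and Shc1 (−0.44 ± 0.12) lower and the docking protein Gab1 (1.06 ± 0.07) higher. Of 9 ERK feedback genes and targets 5 rose and 0 fell, among them Dusp5, at 204.6 ± 22.1 in Zfx-cko HSC and 19.4 ± 0.99 in Zfx-flox HSC (log2 change 2.70 ± 0.15, adjusted p = 2.97e-06), Dusp6 (0.71 ± 0.07) and Egr1 (0.64 ± 0.09). Fgf13 averaged 111.5 ± 7.84 in Zfx-cko HSC and 5.25 ± 0.04 in Zfx-flox HSC (log2 change 2.69 ± 0.17). It was the 1 gene that passed of 6 further tested in the FGF ligand list, and it is the intracellular family member. Its Zfx-flox values lay below 14.2, so its log2 change ranged from 1.43 to 4.41 over the alternatives. Fgf13, Dusp5 and Fgfr1 passed the filter on low signal only through the Zfx-cko arrays. Fgfrl1 lost its call without HSC Zfx-cko replicate 1 or Zfx-flox replicate 2 (adjusted p = 0.0548 and 0.0568), as did Shc1 (0.116 and 0.119), and Ext1 lost its own when probe sets were averaged (−0.56).

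**Figure D3:**
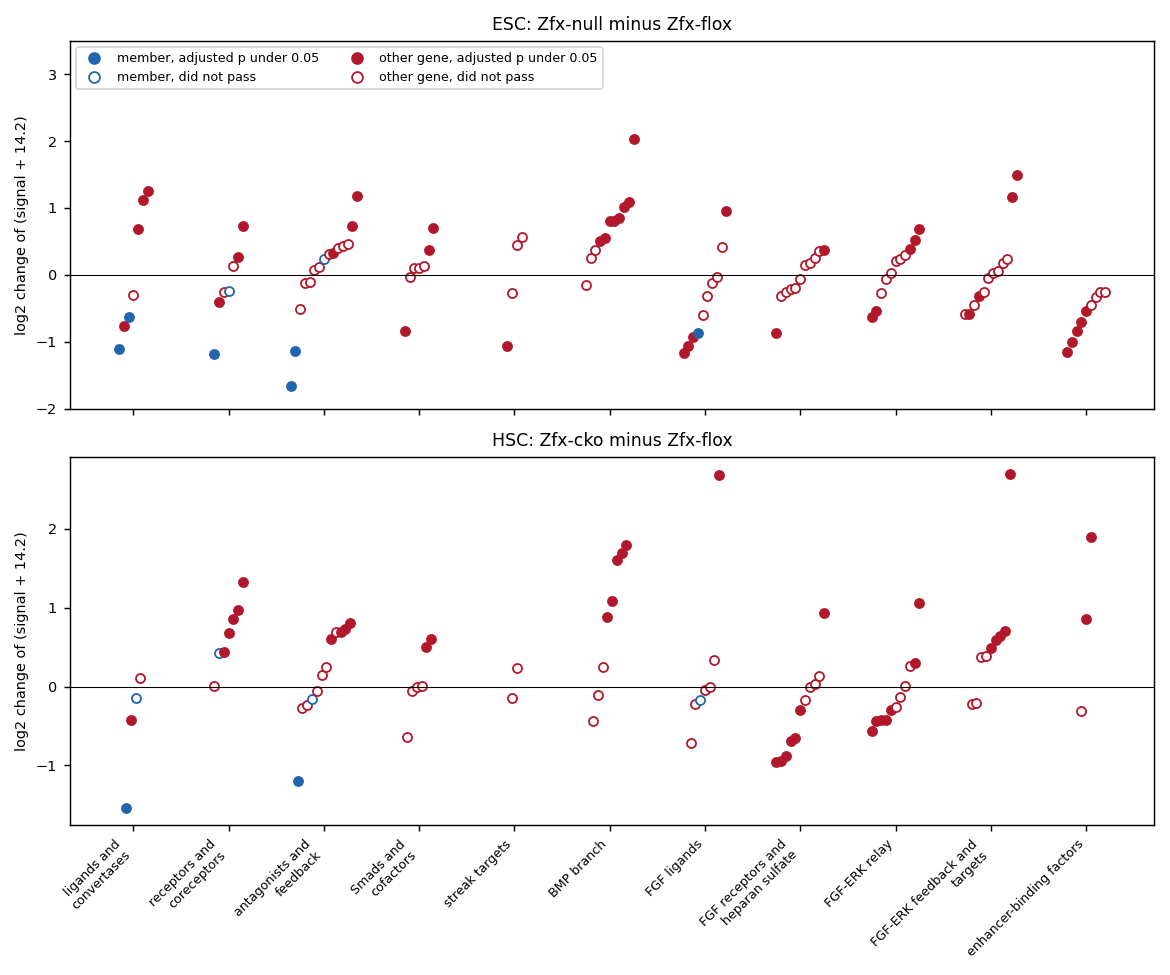
Log2 change of each tested gene in the pathway lists, for Zfx-null minus Zfx-flox in ESC (upper panel) and Zfx-cko minus Zfx-flox in HSC (lower panel); each point is 1 gene, blue for members and red for others, and filled points passed the adjusted p threshold of 0.05. In the BMP branch the filled points lie above 0 in both cell types (list medians 0.80 in ESC and 0.98 in HSC), while 5 enhancer-binding factors lie below 0 in ESC (list median −0.53).

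The genes whose profile over the 8 arrays was most like that of a member were found among 12676 genes by the root mean square difference of log2 values after each profile's own mean had been removed. For Nodal these were Fabp3 (0.101) and Mdk (0.122), for Fgf4 (probe set 1450282_at) Gm32960 (0.0927) and Pzp (0.130), and for Gdf3 Pmm1 (0.189) and Rnf17 (0.241). For Lefty1 they were Mybl2 (0.202) and 1700029P11Rik (0.232), and for Lefty2 Zic5 (0.185) and Mymx (0.195). Tdgf1 had no close match, with Sox2 (0.392) and Trap1a (0.411) nearest. Acvr2b lay nearest to Cyth2 (0.109) and Slc8b1 (0.124), and Smad7 to Tmem9 (0.114) and Sirt2 (0.166). Most of each profile is the step between ESC and HSC, so the likeness describes that step first. For Fgf4 the step depends on the probe set. The set used, 1450282_at, averaged 276 in Zfx-flox ESC and 69.4 in Zfx-flox HSC, whereas 1420085_at averaged 1613 and 2.09. The likeness given for Fgf4 thus holds for the dimmer set only.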

How the data were processed

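RNA of 4 groups with 2 arrays each was analysed. The deposited intensity values are on a linear scale and come from GCOS 1.4, per the submitters' processing notes. The sources used here do not name the probe summary. Each array had a trimmed mean of 250 after removal of the top and bottom 2%. ESC RNA had 1 round of amplification and HSC RNA 2, per the labels' protocols.

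Members and lists were chosen with earlier results of these data known. Control probe sets (64) were dropped. Of the rest, 34945 had 1 gene symbol in the platform annotation, 932 several and 9160 none. A probe set was tested in a cell type when its mean over those 4 arrays reached the 40th percentile. Log2(value + 14.2), 14.2 being the 25th percentile, was fitted in limma 3.58.1 (R 4.3.3) with 4 group means over 8 arrays and eBayes with a trend, so HSC spread enters ESC errors. For list genes the probe set with the highest mean stood for the gene. Per pathway list the text names up to 3 of the largest passing changes in each cell type, and further genes where stated. Genes that did not pass are named for some lists only. On simulated data, in which only a small part of the 27022 probe sets was changed, 45% of 2-fold changes were recovered in ESC and 43% in HSC. For log2 changes of 0.5 these shares were 9% and 8%. The real data had 6792 calls in ESC and 10275 in HSC, which moves the adjusted p threshold, so the simulated shares do not carry over to them. Alternatives were other pseudocounts, filters and normalisations, summaries per gene, separate fits, no trend, a replicate block, and leaving out each array. Arrays give no counts, and their number limits the precision.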

Additional observations from a re-analysis of the deposited data

Results flagged for a closer look

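The change differed between HSC and ESC for 3 of the 9 member probe sets tested in both, taken as HSC change minus ESC change in limma. For Nodal 1422058_at the difference was 0.49 (adjusted p = 0.0411), with a fall of a bright signal in Zfx-null ESC and values under 40 in HSC. For Acvr2b 1439856_at it was 1.51 (adjusted p = 0.0147, and 1.07 to 2.25 over the alternatives), with both Zfx-flox HSC values under 14.2, and the other tested Acvr2b set gave 0.67 (adjusted p = 0.0597). For Smad7 1443771_x_at it was −1.39 (adjusted p = 0.0117), and the other Smad7 set gave −0.40 (adjusted p = 0.319). So for Acvr2b and Smad7 the difference was called on 1 probe set and not on the gene's other tested set. With the mean of a gene's probe sets Smad7 was called lower in Zfx-cko HSC (−0.71, adjusted p = 0.0276), and its difference passed too (−0.89, adjusted p = 0.049). That mean takes in 1443771_x_at, so it is no reading of Smad7 apart from that set. Groups of 2 allow no test for an array far from the others.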

How the results depend on the processing

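Of 118 single values, given under at most 21 alternatives each, 2171 repeats kept the direction and the side of the threshold, 195 lost the call, 24 gained it and 13 turned. The ESC fall of Lefty1, Gdf3 (both sets), Nodal 1422058_at and Fgf4 1420085_at passed under each alternative run, as did the HSC fall of Lefty1 and Gdf3. Member probe sets called in ESC were 6 in place of 10 with no pseudocount, where Lefty2 (adjusted p = 0.114), Tdgf1 (0.208), Fgf4 1420086_x_at (0.0818) and Nodal 1422057_at (0.361) were lost; fitting ESC alone with no pseudocount, a setting chosen after seeing the data, called 10, and that fit has its own spread, trend and prior. With 1 probe set per gene 6 ESC and 2 HSC members were called, and with the mean of a gene's probe sets 6 and 3, where fewer features were tested. Member differences called were 3, but 8 with no filter, 5 with the replicate block and 1 to 4 when single arrays were left out (1 without ESC Zfx-flox replicate 2). Calls over all features were 6792 in ESC, 10275 in HSC and 7437 differences, against 3943, 5379 and 3992 with 1 probe set per gene and 3397, 4532 and 3064 with the mean. Centring on array medians put 52.5% of HSC calls lower in Zfx-cko, against 42.4%.

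The replicate block called 8292, 11620 and 8943 probe sets, with 10, 6 and 5 members; same-numbered arrays share only a number, and their deviations correlated at 0.317 in ESC and 0.0676 in HSC over 2 pairs, so the pairing adds no evidence. Changes that turned were, with the mean of all probe sets in ESC, Hs2st1 (−0.016), Skil (−0.028), Tgfbr1 (−0.052) and Ext2 (0.027). With single arrays left out, the ESC changes of Smad7 1443771_x_at (−0.26 without Zfx-flox replicate 1, to 0.53), Trim33 (−0.099 to 0.022 without Zfx-flox replicate 2), Acvr2a (−0.0055 without Zfx-flox replicate 2, to 0.26) and Nras (−0.014 without Zfx-flox replicate 2, to 0.49) turned. In HSC Smad7 1423389_at (−0.37 to 0.046 without Zfx-flox replicate 2), Fgf4 1450282_at (−0.34 to 0.0042 without Zfx-cko replicate 2) and Dppa3 (−0.26 to 0.20 without Zfx-flox replicate 1) turned, as did the Lefty1 difference (−0.25 to 0.12 without HSC Zfx-cko replicate 2). The causes were not tested. Signals under about 14.2 carry little order.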

Other observations

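The genes next to the members were looked up by their order in the RefSeq gene table (GRCm38.p6), after the members' values had been seen. Of 12 neighbours tested in ESC 2 fell in Zfx-null, 2 rose and 8 did not pass in limma (log2 changes −0.60 to 0.35). Over all tested genes in ESC 14.4% fell and 15.4% rose, and counts this small cannot be set apart from those shares. Lrrc2, the neighbour of Tdgf1, read 149 and 139 in Zfx-null ESC, against 365 and 320.2 in Zfx-flox ESC (log2 change −1.17 ± 0.32, adjusted p = 0.0284). Pald1, next to Nodal, read 486 and 445 in Zfx-null ESC, against 998 and 959.5 in Zfx-flox ESC (log2 change −1.05 ± 0.26, adjusted p = 0.0187). Both calls were lost without any 1 of the 4 ESC arrays (adjusted p 0.0856 to 0.132 for Lrrc2 and 0.0642 to 0.0896 for Pald1) and with no pseudocount (0.176 for Lrrc2 and 0.0586 for Pald1). The 2 that rose lie next to Smad7, namely Dym (0.53 ± 0.11, adjusted p = 0.00778) and Ctif (0.80 ± 0.21, adjusted p = 0.0224), and Ctif lost its call without Zfx-null replicate 1, Zfx-flox replicate 1 or Zfx-flox replicate 2 (0.0559 to 0.132).

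In HSC, of 9 neighbours tested, 3 rose in Zfx-cko, 1 fell and 5 did not pass (log2 changes −0.18 to 0.44). Over all tested genes in HSC 19.7% fell and 22.6% rose, and these counts too cannot be set apart from those shares. Ctif (0.85 ± 0.21, adjusted p = 0.0113), Sde2 next to Lefty2 (0.32 ± 0.08, adjusted p = 0.0114) and Pald1 (0.78 ± 0.26, adjusted p = 0.043) rose, and Eif4ebp2, the other neighbour of Nodal, fell by 0.36 ± 0.07 (adjusted p = 0.00342). Each of the 3 rises was lost without some single arrays, Ctif at 0.0604 and 0.0816, Sde2 at 0.0575 to 0.0854 and Pald1 at 0.0585 to 0.282, where the change of Pald1 ranged over 0.36 to 1.19. Gdf3, which fell in HSC, lies between Apobec1 (0.44 ± 0.20, adjusted p = 0.108) and Dppa3 (−0.03 ± 0.18, adjusted p = 0.909), and neither passed there.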
